A study of Mus musculus with 8 samples.

Results

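The genes described here belong to growth factor signalling from the cell surface to the nucleus. They comprise 7 growth factor receptors, 4 ligands of the EGF family, and 8 adaptors, exchange factors and RAS GTPase activators. The others are 9 genes of the RAS, RAF, MEK and ERK families, 3 JNK and p38 kinases, 8 feedback inhibitors, and 6 immediate early or downstream target genes. These 45 genes were chosen by name, for their function, with earlier results of these data known. Of the 45, 44 were among the 19642 genes of the expression table and 43 passed the filter on low counts, which left 14214 genes for testing. Erbb2, at 5 to 17 counts per mouse, did not pass it, and the level of Areg, which encodes the ligand amphiregulin, was not analysed here.

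RNA-seq was carried out on whole livers of mice fed a chow diet (CD). The groups were 4 WT livers and 4 livers of N-LKO mice, in which an albumin-Cre transgene, active in hepatocytes and in the liver's epithelial precursors, deletes loxP-flanked NgBR. NgBR is encoded by Nus1 and is a subunit of cis-prenyltransferase, the enzyme that commits isoprenoids to dolichol synthesis and so to protein glycosylation. All mice were on a C57BL6 background, and the study used males. The age is not given, and the labels state both 8 and 16 weeks of CD for the same mice. Whether the WT mice carried the floxed alleles or Cre is not stated. The endothelial, stellate, fibroblast and immune cells of an N-LKO liver keep the gene, since the Cre driver is not active there.

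A receptor tyrosine kinase that binds its ligand phosphorylates itself, and adaptors such as Grb2 and Shc1 then bring the exchange factor SOS to the membrane, where it loads RAS with GTP. RAS-GTP starts the relay from RAF to MEK to ERK, while GTPase activators such as neurofibromin switch RAS off. ERK induces immediate early genes and also its own inhibitors, the dual-specificity phosphatases, Sprouty and SPRED proteins, which close a negative feedback loop. In liver, MET and the EGF receptor family are known for their part in regeneration, and FGF receptors for the control of bile acid synthesis and metabolism. These receptors are glycoproteins, and the study asked about receptor tyrosine kinase signalling in N-LKO livers on a fat-rich diet. The livers here were from CD-fed mice, and only RNA was measured, not receptor glycosylation or kinase activity.

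Each MAP kinase is switched on by phosphorylation of a threonine and a tyrosine in its activation loop, and the residue between them tells the subfamilies apart. The coding stretches below, 39 bases each, are shown because the kinases that follow differ in how their transcripts moved. They were read 5′ to 3′ on the mRNA strand from the GENCODE M21 transcripts (GRCm38), with the 3 codons of the threonine, the middle residue and the tyrosine in capitals.
Mapk3: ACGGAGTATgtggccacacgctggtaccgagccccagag
Mapk15: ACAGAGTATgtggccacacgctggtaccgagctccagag
Mapk14: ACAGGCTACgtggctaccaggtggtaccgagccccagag
Mapk8: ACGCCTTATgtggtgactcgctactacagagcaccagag
Mapk9: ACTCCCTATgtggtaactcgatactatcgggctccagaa
The middle codon encodes glutamate in Mapk3, a classical ERK kinase, and in Mapk15, an atypical member of the same branch. It encodes glycine in Mapk14, which encodes p38 alpha, and proline in the JNK genes Mapk8 and Mapk9. Of the 39 bases, Mapk15 shared 37 with Mapk3, Mapk14 shared 31, Mapk8 shared 29 and Mapk9 shared 25. The stretches lie within coding exons at chr7:126763458-126763496 for Mapk3 and chr15:75996146-75996184 for Mapk15, both on the plus strand. Mapk14 has it at chr17:28728399-28728437 and Mapk9 at chr11:49872830-49872868, on the plus strand, and Mapk8 at chr14:33392973-33393011 on the minus strand.

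Library totals were 15430519 to 18412201 counts in WT and 14688404 to 18585412 counts in N-LKO mice. Nus1 fell to 41.7% of its WT level, from 82.0, 90.4, 90.5 and 89.7 CPM, the usual count scaled to a common library size (here with TMM factors), to 33.3, 36.2, 38.8 and 38.7 CPM (log2 fold change -1.26, adjusted p = 3.06e-05, edgeR). The hepatocyte markers summed to 81400–112000 CPM in WT and 84500–103000 CPM in N-LKO mice, which fits the labelled tissue. The sums of the fibroblast and cholangiocyte markers did not overlap between the genotypes and were higher in N-LKO mice; their values stand beside the receptors. The sums of the stellate cell, sinusoidal endothelial, Kupffer cell and macrophage, lymphocyte, neutrophil and mesothelial markers overlapped. Of the 10 cholangiocyte markers named, 8 were in the expression table, and of the 8 neutrophil markers 6. In whole tissue, fewer cells of a type and less RNA per cell cannot be told apart.

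In CD-fed livers, 1 receptor rose and 1 kinase fell, and no other gene of the group passed the test. Fgfr1, which encodes a fibroblast growth factor receptor of mesenchymal cells, rose 2.24-fold, and Mapk15 fell to 24.4% of its WT level. In edgeR's quasi-likelihood test, with p-values adjusted by Benjamini-Hochberg over the 14214 genes and a threshold of 0.05, 1 of the 43 tested members was thus called higher and 1 lower. Over all genes tested, 0.823% were called higher and 0.218% lower. At an unadjusted p under 0.05 there were 7 members, 2 higher and 5 lower, against 12.8% of all genes. The 8 mice separated by genotype without overlap for 3 members, Fgfr1 and Mapk14 with higher and Mapk15 with lower levels in N-LKO mice, against 7.52% of all genes.

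The median log2 fold change (N-LKO over WT) of the 43 members was 0.02, beside -0.0033 over all genes tested. The sign was positive for 26 members and negative for 17. For 26 of the 43 the 95% interval of the fold change lay within 1.5-fold in either direction, and so it did for 62.1% of all genes. For those members the data leave room only for changes smaller than 1.5-fold. The intervals were widest for the sparsely counted or variable genes Egf, Fos, Jun, Dusp1, Dusp4 and Spry2.

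**Figure D1:**
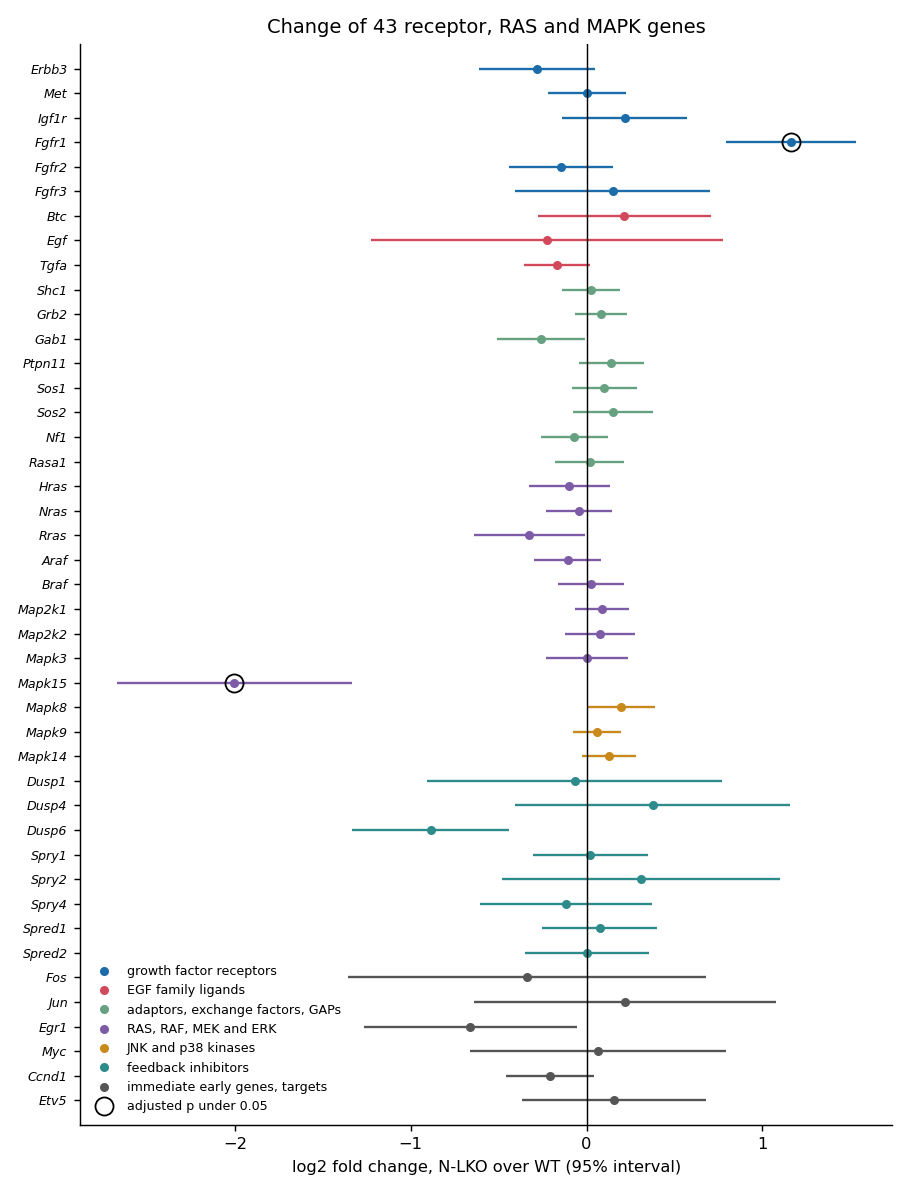
Log2 fold change (N-LKO over WT, x axis) of the 43 tested members, 1 per line and coloured by role, with points for the estimate, bars for the 95% interval and circles around members with an adjusted p under 0.05. Fgfr1 at 1.16 and Mapk15 at -2.00 are the circled genes, and the Dusp6 interval, -1.33 to -0.44, lies below 0 without a circle.

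The members spanned a wide range of levels, which was compared between genes per kilobase of exon. On that scale, CPM per kilobase, Erbb3 was the highest in WT livers at 27.0, followed by Mapk14 at 14.1, Grb2 at 12.8, Met at 12.6 and Dusp6 at 8.37. Among the 7 receptors of the group, Erbb3 and Met thus had the most transcript per exon length. Outside the group, the receptor genes Egfr and Insr stood at 37.7 and 15.6 in WT livers. Fgfr2, at 2.12, and Fgfr3, at 1.15, were intermediate. Fgfr1 stood at 0.383 and Igf1r at 0.283, and Erbb2, a co-receptor that ERBB3 can signal with, at 0.100. The lowest was Egf, at 0.0624. Mapk15 stood at 0.932 in WT and 0.228 in N-LKO livers, and Fgfr1 reached 0.858 in N-LKO livers, still below Fgfr2 and Fgfr3.

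**Figure D2:**
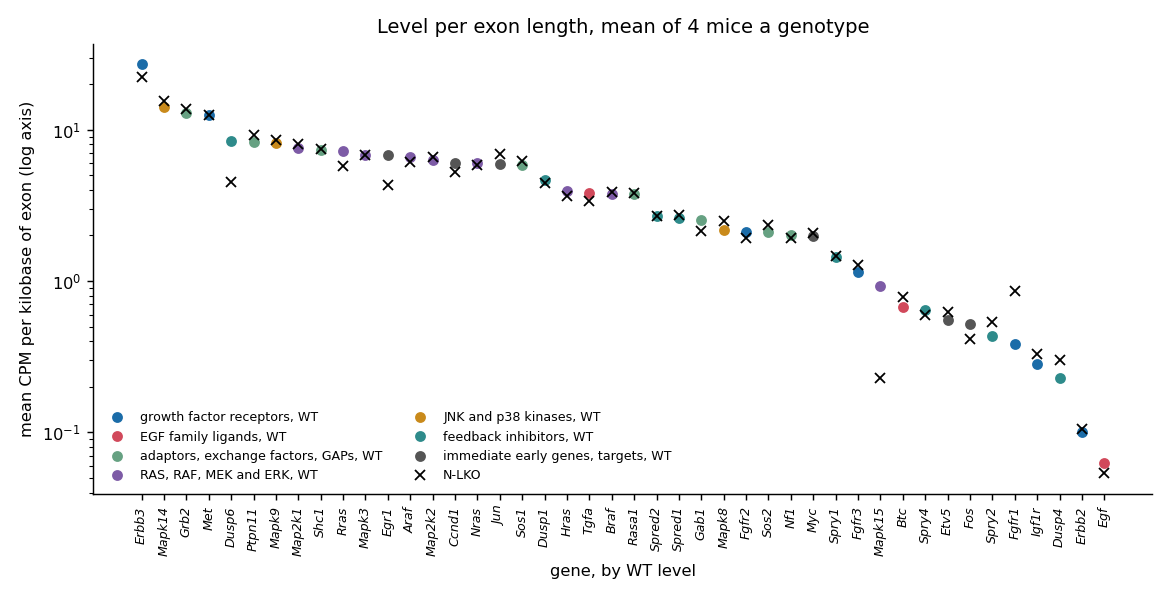
Mean level of the 44 members present in the table, in CPM per kilobase of exon (log axis), ordered along the x axis by the WT level; coloured points are WT means by role and crosses are N-LKO means, each over 4 mice. Cross and point lie close for most genes and stand apart for Dusp6, Egr1, Mapk15 and Fgfr1.

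Among the receptors, Fgfr1 was measured at 3.31, 3.50, 4.06 and 4.25 CPM in WT 1 to 4 and at 8.39, 10.5, 6.37 and 8.62 CPM in N-LKO 1 to 4. Every N-LKO mouse lay above every WT mouse, and the lowest, N-LKO 3, lay above the highest WT mouse, WT 4. The means were 3.78 ± 0.44 CPM in WT and 8.47 ± 1.69 CPM in N-LKO livers (SD, n = 4 each). The log2 fold change was 1.16 (SE 0.17, 95% interval 0.80 to 1.53, adjusted p = 0.00844, edgeR), and the exact two-sided permutation test over mice gave p = 0.0286, the smallest it can give for 4 against 4. The gene lies at chr8:25513654-25575718 (GRCm38, plus strand). Its exons share 164 bases with an antisense transcript, Gm16159, and since the strand setting of the counting is not stated, reads of these bases cannot be assigned to one of the pair.

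Fgfr1 is known as a receptor of fibroblasts and stellate cells more than of hepatocytes, so the markers of those cells are given beside it. The 10 fibroblast markers summed to 170, 149, 193 and 206 CPM in WT 1 to 4 and to 232, 309, 328 and 242 CPM in N-LKO 1 to 4. Of the 9 tested, 3 were called higher, the matrix genes Dpt (log2 fold change 2.23), Lum (1.46) and Col1a1 (1.45), the last of which lost the call in 7 of the 8 fits that left out 1 mouse (adjusted p up to 0.114, edgeR). Most of the fibroblast sum came from Dcn, with means of 143 of 179 CPM in WT and 193 of 278 CPM in N-LKO livers. Dcn overlapped between the genotypes, was highest in N-LKO 2 at 236.7 CPM and was not called (adjusted p = 0.185, edgeR). The cholangiocyte sum was 36.0 to 62.0 CPM in WT and 73.4 to 155.6 CPM in N-LKO mice, and 2 of its 5 tested markers, Epcam and Spp1, were called higher, and each lost the call in 6 of those 8 fits (adjusted p up to 0.0877 and 0.0964, edgeR). The stellate cell sum overlapped, at 113 to 175 CPM in WT and 130 to 181 CPM in N-LKO mice. The fibroblast and cholangiocyte sums were highest in N-LKO 3, the N-LKO mouse with the lowest Fgfr1, and Fgfr1 was highest in N-LKO 2. The part of these cell types in the rise of Fgfr1 was not tested.

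**Figure D3:**
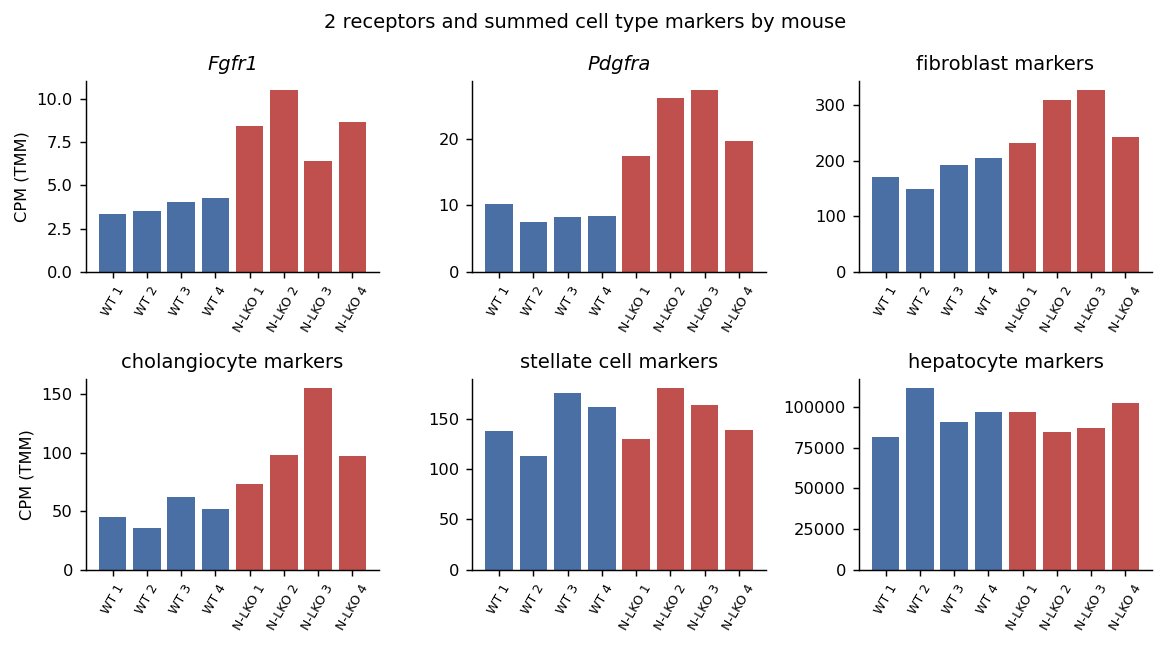
Level by mouse, in CPM (y axis, from 0), of Fgfr1, of the PDGF receptor gene Pdgfra and of the summed fibroblast, cholangiocyte, stellate cell and hepatocyte markers; blue bars are WT and red bars N-LKO mice. In the first 4 panels all N-LKO bars stand above all WT bars, and in the stellate cell and hepatocyte panels the genotypes overlap.

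The other receptors did not pass the test. Erbb3, a neuregulin receptor with little kinase activity of its own, was measured at 205.8, 167.9, 118.6 and 158.6 CPM in WT and at 110.1, 139.5, 143.8 and 142.2 CPM in N-LKO mice, with log2 fold change -0.28 (95% interval -0.61 to 0.05). WT 3 lay below 3 of the 4 N-LKO mice, so the genotypes overlapped. Met, the hepatocyte growth factor receptor, had almost equal means of 96.5 ± 11.7 and 96.6 ± 8.63 CPM (SD, n = 4 each), and its interval, -0.22 to 0.22, limits any change to well under 1.5-fold. Igf1r, which is low in adult hepatocytes, gave 4.42 to 4.95 CPM in WT and 4.42 to 7.26 CPM in N-LKO livers. Fgfr2 gave 18.2 to 23.6 CPM in WT and 16.9 to 25.3 CPM in N-LKO livers, and its exons share 314 bases with Ctbp2. Those of Fgfr3 share 998 bases with the transcript G630022F23Rik. Fgfr3 had the largest relative spread of the tested receptors in WT, with 5.93, 6.82, 13.3 and 6.95 CPM, WT 3 standing far above the rest, and 9.02, 7.19, 11.9 and 8.22 CPM in N-LKO mice. Erbb2 was at 0.38 to 0.64 CPM in WT and 0.33 to 1.12 CPM in N-LKO livers, from too few counts for a test.

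Of the 3 ligand genes tested, 0 were called in edgeR, DESeq2 or limma-voom, and 0 had an unadjusted p under 0.05 in any of the 3 tools. Tgfa, which encodes transforming growth factor alpha, was the best measured, with 23.9, 26.5, 23.7 and 24.5 CPM in WT and 22.6, 24.2, 19.8 and 21.1 CPM in N-LKO mice (log2 fold change -0.17, 95% interval -0.36 to 0.02). N-LKO 2 lay within the WT range and the other N-LKO mice below it. Btc, which encodes betacellulin, gave 2.16 to 4.01 CPM in WT and 2.50 to 4.05 CPM in N-LKO livers. Egf had the largest spread of the ligands, 1.23, 0.88, 0.38 and 0.33 CPM in WT and 0.68, 0.33, 0.73 and 0.68 CPM in N-LKO mice, which corresponds to 5 to 23 counts. WT 1 and WT 2 were high, WT 3 and WT 4 close to N-LKO 2, and the 95% interval of the log2 fold change ran from -1.23 to 0.78.

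The adaptors and the regulators of RAS were evenly expressed, with a median coefficient of variation of 6.68% in WT and 8.31% in N-LKO livers, and 0 of the 8 were called in edgeR, DESeq2 or limma-voom, with 1 at an unadjusted p under 0.05 in edgeR. All 8 had an interval within 1.5-fold in either direction. The adaptors Shc1 (41.6 and 42.4 CPM in WT and N-LKO means) and Grb2 (37.4 and 39.5 CPM), the exchange factors Sos1 (61.7 and 66.1 CPM) and Sos2 (17.97 and 19.96 CPM), and Ptpn11 (62.4 and 68.8 CPM), which encodes the phosphatase SHP2, had log2 fold changes of 0.02 to 0.15. The GTPase activators Nf1, which encodes neurofibromin, and Rasa1 were at 31.9 and 27.4 CPM in WT and 30.4 and 27.7 CPM in N-LKO livers. Gab1, a docking protein downstream of MET and the EGF receptor, was at 13.5, 13.6, 10.5 and 14.1 CPM in WT and 11.5, 9.90, 10.4 and 11.5 CPM in N-LKO mice. WT 3 lay among the N-LKO mice and the other WT mice above them, with log2 fold change -0.26 (unadjusted p = 0.0419, adjusted p = 0.369, edgeR).

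Of the 9 genes of the RAS, RAF, MEK and ERK families, only Mapk15, the atypical kinase, was called. Its level was 2.08, 2.00, 3.42 and 2.04 CPM in WT 1 to 4 and 0.79, 0.46, 0.40 and 0.68 CPM in N-LKO 1 to 4, that is 32 to 54 counts against 6 to 14. No N-LKO mouse reached the lowest WT mouse, and WT 3 stood above the other WT mice. The means were 2.39 ± 0.69 and 0.58 ± 0.18 CPM (SD, n = 4 each). The log2 fold change was -2.00 (SE 0.30, 95% interval -2.67 to -1.33, adjusted p = 0.0114, edgeR), with an exact permutation p of 0.0286, the smallest possible here. Without WT 3 it was -1.78 (adjusted p = 0.0315, edgeR). Mapk15, whose product is known for roles in autophagy and in building cilia, lies at chr15:75993769-75999154 (GRCm38, plus strand), and no annotated exon overlaps it.

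The kinases and GTPases on the main route differed little. Mapk3, whose activation loop sequence is shared almost base for base by Mapk15, had means of 15.3 ± 2.12 and 15.3 ± 0.66 CPM (SD, n = 4 each) and a log2 fold change of 0.0050 (95% interval -0.23 to 0.24). The MEK genes Map2k1 (25.6 and 27.2 CPM) and Map2k2 (35.4 and 37.3 CPM) and the RAF genes Araf (43.3 and 40.2 CPM) and Braf (52.4 and 53.4 CPM) had log2 fold changes of -0.11 to 0.09. Hras (14.67 and 13.69 CPM) and Nras (32.2 and 31.2 CPM) gave -0.10 and -0.04. Rras, a RAS relative known for integrin control, was at 8.02, 8.00, 9.32 and 6.90 CPM in WT and 6.92, 6.47, 7.23 and 5.02 CPM in N-LKO mice. WT 4 lay below N-LKO 1 and N-LKO 3, and the log2 fold change was -0.33 (unadjusted p = 0.044, adjusted p = 0.377, edgeR).

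The stress kinases of the JNK and p38 branches all had positive log2 fold changes, each below 0.2 and none past the test. Mapk8 was at 26.9, 22.8, 25.6 and 24.9 CPM in WT and 32.2, 26.1, 27.9 and 28.5 CPM in N-LKO mice, where only WT 1 reached into the N-LKO range (log2 fold change 0.20, unadjusted p = 0.0484, adjusted p = 0.388, edgeR). Mapk14 was at 56.2, 63.9, 63.7 and 63.7 CPM in WT and 70.1, 65.2, 65.9 and 69.6 CPM in N-LKO mice. The groups did not overlap, but the lowest N-LKO mouse exceeded the highest WT mouse by little, and the log2 fold change was 0.13 (95% interval -0.02 to 0.28, adjusted p = 0.481, edgeR). Mapk9 had means of 55.7 and 58.1 CPM, with a log2 fold change of 0.06.

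**Figure D4:**
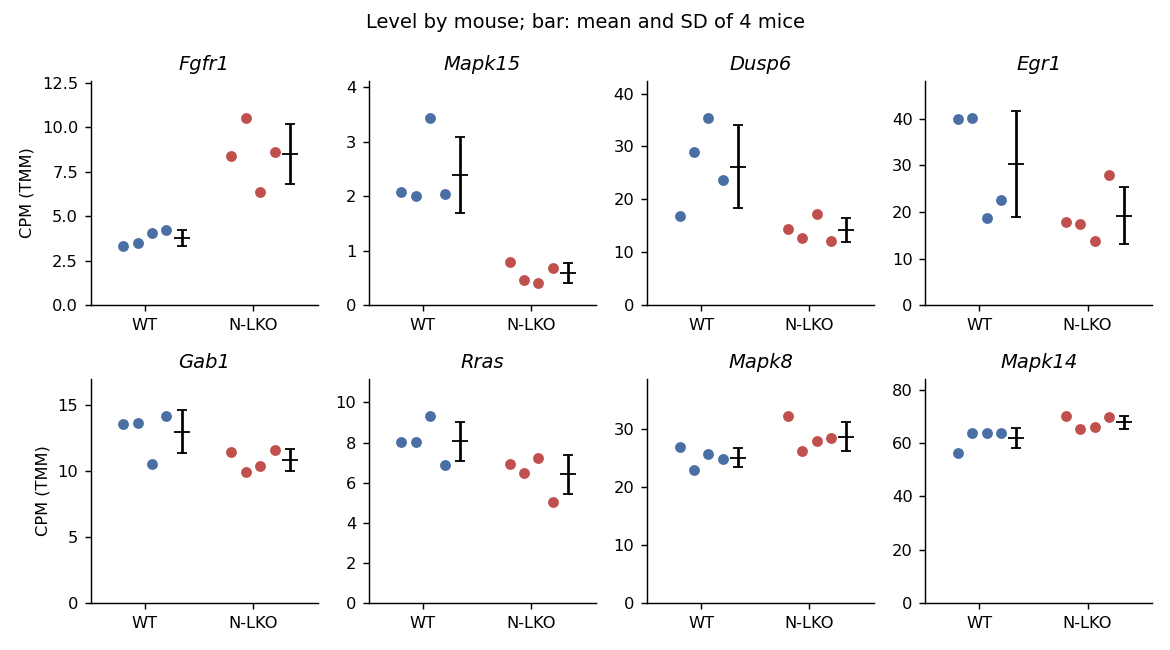
Level in CPM (y axes, from 0) of the 8 members with an unadjusted p under 0.05 or no overlap between the genotypes, with 1 point per mouse (WT blue, N-LKO red, in replicate order) and the mean ± SD of 4 mice in black. Fgfr1, Mapk15 and Mapk14 separate by genotype, and in Dusp6 the lowest WT mouse, at 16.9 CPM, falls below the highest N-LKO mouse, at 17.3 CPM.

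ERK is known to induce feedback inhibitors, but its activity was not measured here. Among these genes, Dusp6, whose product removes phosphate from ERK itself, had the largest difference. It was measured at 16.9, 29.0, 35.3 and 23.6 CPM in WT 1 to 4 and at 14.4, 12.7, 17.3 and 12.2 CPM in N-LKO 1 to 4. The N-LKO mice were close together and the WT mice spread widely, with WT 1 just below N-LKO 3. The mean was 54.0% of WT, and the log2 fold change of -0.89 (SE 0.20, 95% interval -1.33 to -0.44) did not pass the test (unadjusted p = 0.00115, adjusted p = 0.0763, edgeR), with an exact permutation p of 0.0571. The call depended on 1 mouse and on the tool: the adjusted p was 0.0184 in edgeR without WT 1 and 0.0023 in DESeq2 with all mice.

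The other feedback genes had smaller log2 fold changes than Dusp6, in both directions. Spry1 (4.19 and 4.26 CPM), Spred1 (17.5 and 18.5 CPM) and Spred2 (12.5 CPM in both) had log2 fold changes of 0.0040 to 0.07. Spry2 (0.91 and 1.12 CPM), Dusp4 (0.63 and 0.83 CPM) and Spry4 (3.07 and 2.82 CPM) were measured at 0.31, 0.38 and -0.12 on the log2 fold change scale, with intervals that all included 0. Dusp1, which acts mainly on p38 and JNK and is known as an immediate early gene, ran from 8.31 to 28.6 CPM in WT and from 9.29 to 23.1 CPM in N-LKO mice, highest in WT 2 and N-LKO 1. Of the 8 feedback inhibitors, 5 had a positive and 3 a negative log2 fold change, and DESeq2 called 1 of them, Dusp6.

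Of the target genes, Egr1, an immediate early transcription factor, had the largest difference. It was at 39.97, 40.08, 18.64 and 22.63 CPM in WT and 17.86, 17.49, 13.67 and 27.84 CPM in N-LKO mice. WT 1 and WT 2 were high, while WT 3 and WT 4 lay below N-LKO 4, and the log2 fold change of -0.66 (SE 0.27, 95% interval -1.26 to -0.06) did not pass the test (unadjusted p = 0.0347, adjusted p = 0.344, edgeR). Ccnd1, which encodes cyclin D1 and follows ERK activity in dividing hepatocytes, gave 25.8 to 31.5 CPM in WT and 21.7 to 29.5 CPM in N-LKO livers (log2 fold change -0.21, 95% interval -0.46 to 0.04). Its exons share 1100 bases with LTO1. Etv5, an ETS factor induced by FGF signals, was at 1.71 to 2.81 CPM in WT and 1.97 to 3.25 CPM in N-LKO livers.

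The remaining immediate early genes differed more between mice of a genotype than between the genotypes. Jun had the largest spread in WT, 35.9, 17.0, 12.0 and 10.3 CPM, and was at 32.8, 12.9, 25.2 and 16.6 CPM in N-LKO mice. Myc was at 9.67, 4.75, 2.85 and 4.14 CPM in WT and 7.66, 4.49, 4.84 and 5.50 CPM in N-LKO mice. Both genes were highest in WT 1 and next highest in N-LKO 1. Fos was low throughout, at 1.39, 1.63, 1.08 and 0.83 CPM in WT and 0.34, 1.91, 1.13 and 0.54 CPM in N-LKO mice, and its highest mouse was N-LKO 2 and its lowest N-LKO 1. The highest mouse thus differed between these genes, WT 1 for Jun and Myc, WT 2 for Egr1 and Dusp1, and N-LKO 2 for Fos. The median coefficient of variation of the 6 target genes was 32.9% in WT and 28.8% in N-LKO livers, against 12.8% and 13.3% over all genes tested.

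**Figure D5:**
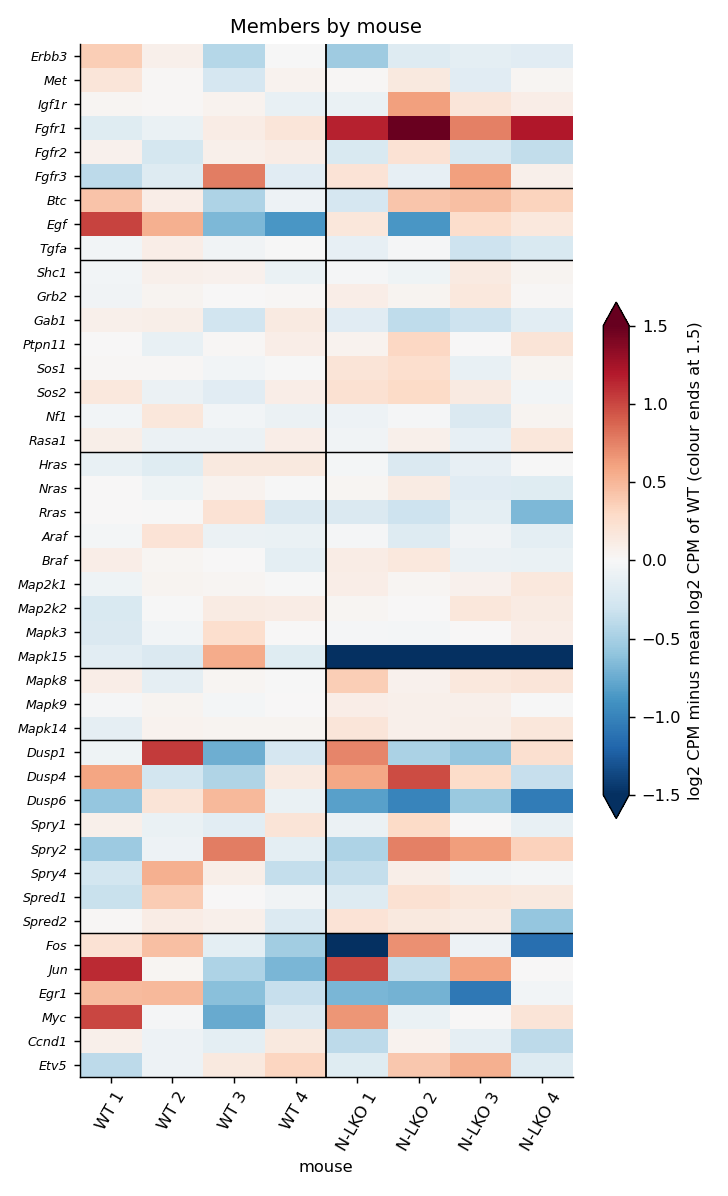
Log2 CPM of the 43 tested members (rows, in the order of the roles in the text, black lines between roles) in each mouse (columns), minus the mean log2 CPM of the WT mice, with red for higher, blue for lower and the colour ending at 1.5 either way. Fgfr1 is red and Mapk15 and Dusp6 are blue in all 4 N-LKO mice, the kinase and adaptor rows are pale, and the strong colours of Jun, Myc, Dusp1, Egf and Fos follow single mice of both genotypes.

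Promoter sequences are printed for Dusp6, the inhibitor with the largest difference, and for Dusp1 and Fos, immediate early genes that varied by mouse. They are the 250 bases before the start of each gene from RefSeq (GRCm38.p6), 5′ to 3′ on the gene's strand, at chr10:99262981-99263230 (plus) for Dusp6, chr17:26508473-26508722 (minus) for Dusp1 and chr12:85473640-85473889 (plus) for Fos. Capitals mark matches on either strand to the CCAAT box (CCAAT), the core of the cyclic AMP response element (TGACG), the TATA box (TATAAA), the ETS core (CCGGAA) or the AP-1 site (TGANTCA).
Dusp6: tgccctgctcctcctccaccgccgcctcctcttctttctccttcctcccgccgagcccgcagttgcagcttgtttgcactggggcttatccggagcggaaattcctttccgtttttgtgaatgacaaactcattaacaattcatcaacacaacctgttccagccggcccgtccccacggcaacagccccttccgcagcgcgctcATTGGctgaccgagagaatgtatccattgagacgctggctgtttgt
Dusp1: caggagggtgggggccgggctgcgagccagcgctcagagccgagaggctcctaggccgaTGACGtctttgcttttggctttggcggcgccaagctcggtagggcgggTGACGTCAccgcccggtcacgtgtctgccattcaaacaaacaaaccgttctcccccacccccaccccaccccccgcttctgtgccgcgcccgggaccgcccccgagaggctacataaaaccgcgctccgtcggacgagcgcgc
Fos: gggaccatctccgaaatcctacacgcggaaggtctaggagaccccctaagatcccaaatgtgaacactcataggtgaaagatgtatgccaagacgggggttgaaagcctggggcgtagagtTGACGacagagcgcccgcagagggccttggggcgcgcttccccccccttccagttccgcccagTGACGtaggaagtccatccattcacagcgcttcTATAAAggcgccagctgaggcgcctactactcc
Dusp6 held 1 match, a CCAAT box on the minus strand that begins 46 bases before the start. Dusp1 held the TGACG core from 191 and 143 bases before the start, and on the minus strand from 140, the last pair overlapping, and Fos held it from 129 and 66 bases before the start, with a TATA box from 33. TGACG occurred in 17.8% of the 32851 mouse promoters of the same length, CCAAT in 33.8%, TATAAA in 12.4%, CCGGAA in 12.0% and TGANTCA in 6.7%. The RefSeq table held 46 promoters of 36 members, and of these 46 promoters 12 held TGACG, 18 CCAAT, 3 TATAAA, 9 CCGGAA and 2 TGANTCA. A match is a description of these letters, and no binding was measured.

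Other genes of the pathway were taken from lists of 202 genes in 5 classes, of which 177 were in the table and 146 tested. Of the 146, 2 were called higher and 1 lower in edgeR, while DESeq2 called 8. At an unadjusted p under 0.05 in edgeR, 17 were higher and 6 lower, and the median log2 fold change was 0.05. Over all 14214 genes, 0.823% were called higher and 0.218% lower in edgeR, and DESeq2 called 371. An unadjusted p under 0.05 was found for 12.8% of them, 976 higher and 838 lower. Among 26 tested receptor tyrosine kinases, edgeR called 1 and DESeq2 3, Pdgfra in both, a gene that encodes the PDGF receptor alpha of mesenchymal cells. It was at 10.2, 7.44, 8.24 and 8.33 CPM in WT and 17.4, 26.1, 27.3 and 19.6 CPM in N-LKO mice, without overlap (log2 fold change 1.40, SE 0.16, adjusted p = 0.00214, edgeR). Like the fibroblast sum, it was highest in N-LKO 3, and the part of that cell type in it was not tested.

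Among 21 tested ligands, Fgf21, a hormone that hepatocytes release and that acts through FGF receptors, was the 1 called in edgeR, where it was lower, and DESeq2 called 2. It was at 5.02, 4.07, 5.07 and 4.86 CPM in WT and 3.06, 2.38, 2.39 and 2.11 CPM in N-LKO mice, without overlap (log2 fold change -0.93, SE 0.16, adjusted p = 0.0224, edgeR). Without WT 1, WT 3, WT 4, N-LKO 2, N-LKO 3 or N-LKO 4 the adjusted p was 0.0508 to 0.0785, and with the replicate block 0.0572, with log2 fold changes of -1.05 to -0.86 over the fits that left out 1 mouse. Among 32 tested adaptors, exchange factors and GTPase activators, the adaptor gene Shc2, a relative of Shc1, was called higher, from 2, 0, 1 and 1 counts in WT to 22, 21, 30 and 24 counts in N-LKO mice (adjusted p = 0.000913, edgeR). DESeq2 called 2 genes of that class. With so few WT counts the size of its rise is poorly fixed, and its exons overlap the transcript Gm47163. Of the 39 tested RAS, RAF, MEK and MAPK genes and of the 28 tested feedback inhibitors and targets, 0 were called in edgeR, with 1 and 6 at an unadjusted p under 0.05, and DESeq2 called 0 and 1.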

How the data were processed

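RNA-seq was performed on 8 mouse livers, 4 WT and 4 N-LKO. The authors removed rRNA, made libraries with a kit that they name as TrueSeq Small RNA, sequenced on a HiSeq instrument, trimmed reads in-house and aligned them with TopHat2, whereas the submitters' processing notes name STAR, Partek and mm9. The gene coordinates of the deposited table match GRCm38 (GENCODE M21) for 96.8% of genes, so GRCm38 is used here. The counting program and its strand setting are not given in the sources used here. The authors deposited expected counts per gene and mouse, not normalized, with decimals in 52.3% of genes, and these were rounded to whole counts. Every gene in the table has a sum over mice of at least 10.

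Genes passing edgeR's filterByExpr (minimum count 10) were scaled by TMM and tested with the quasi-likelihood test (edgeR 4.0.16, limma 3.58.1, R 4.3.3), genotype as the only term, with Benjamini-Hochberg adjustment over 14214 genes. The study's own cuffdiff test needs reads. Alternatives were RLE scaling, library totals, other filters, replicate blocks, DESeq2 1.42.0, limma-voom and leaving out each mouse. In a simulation of this comparison with 14214 genes, edgeR recovered 77% of 2-fold and 98% of 4-fold changes, with 10 false calls. The changes were placed only in genes above a minimum mean CPM, which Egf and Dusp4 did not reach, so the recovery does not cover them. Single levels were compared by an exact permutation test, whose smallest p is 0.0286 for 4 against 4. Library totals, 14688404 to 18585412 counts, set the precision of low genes, and the fitted intervals cover the spread between mice.

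The members and gene lists were chosen with earlier results of these data known. All members are named by role. Values per mouse are given for members with an unadjusted p under 0.05 or without overlap, and for the receptor, ligand and target genes of largest spread; Erbb3, Tgfa, Fos and Myc were added after their values were seen. Of the other pathway genes, those called are named, and Egfr and Insr were added for their level after their values were seen. One result is not reported here. The exons of 14 of the 44 members share bases with another annotated gene. The largest such overlaps, summed over the other genes, are 1107 bases in Egf, 1100 in Ccnd1, 998 in Fgfr3 and 710 in Spry1. Each sample is labelled as a separate biological replicate. No pair of mice of a genotype agreed within counting noise.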

Additional observations from a re-analysis of the deposited data

Results flagged for a closer look

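In 9 of 86 groups of 4 mice (43 tested members in 2 genotypes), 1 mouse stood apart from the other 3 by Dixon's test on the CPM scale, and in 8 on the log2 scale, where 4.3 are expected by chance at 1 in 20. Among the receptors these were Erbb3 in N-LKO 1 (110 CPM, the lowest N-LKO mouse), Fgfr2 in WT 2 (18.2 CPM, low) and Fgfr3 in WT 3 (13.3 CPM, high). Among the ligands it was Egf in N-LKO 2 (0.33 CPM, low). Among the signalling genes and inhibitors these were Mapk15 in WT 3 (3.42 CPM, high), Mapk14 in WT 1 (56.2 CPM, low), Gab1 in WT 3 (10.5 CPM, low), Nf1 in WT 2 (35.8 CPM, high) and Spred2 in N-LKO 4 (8.28 CPM, low). The Mapk15 call held without WT 3, as given with its values, and the Fgfr3 log2 fold change moved from 0.15 to 0.469 without that mouse. No mouse accounted for more than 3 of the 9 flags.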

How the results depend on the processing

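Fgfr1 and Mapk15 were called in every fit in which they were tested. With 1 mouse left out, the log2 fold change of Fgfr1 was 1.05 to 1.28 (adjusted p up to 0.0302, edgeR) and that of Mapk15 -2.20 to -1.78 (adjusted p up to 0.0448). With at least 10 counts in every mouse, Mapk15 could not be tested, which left 1 member and 98 genes called. DESeq2 called 371 genes, 3 members (Dusp6 added), and 8 other pathway genes, and 4 members had an unadjusted p under 0.05. The replicate block, which took the number in the sample titles, gave 131 genes, 2 members, Spred2 -0.0192, Fgfr1 at adjusted p = 0.0315 and Mapk15 at 0.0459 (edgeR). The number in the library names as the replicate block gave 113 genes, 2 members, 5 other pathway genes and Spred2 -0.0150. Neither numbering pairs the mice: correlations of their deviations were -0.0853 to 0.0625 for the titles and -0.0092 to 0.166 for the library names.

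The signs of log2 fold changes near 0 depended on the scaling. With library totals, which moved the median of all genes to -0.0373, the members' median was -0.00962, Met -0.0317, Braf -0.00635, Mapk3 -0.0299, Shc1 -0.00751, Rasa1 -0.0179, Spry1 -0.00962 and Spred2 -0.0256. With no filter, Met was -0.00756, Mapk3 -0.00304 and Spred2 -0.00462, and in limma-voom Dusp1 was 0.00448 and Spred2 -0.0140. The cause was not tested. None of these genes was called. With 1 mouse left out, genes called ranged from 71 (without WT 4) to 173 (without N-LKO 2) and members called from 2 to 3 (3 without WT 1). Other pathway genes called ranged from 2 to 3, and the members' median from -0.0021 to 0.0592. Members at an unadjusted p under 0.05 numbered 3 (without WT 2) to 7. Members without overlap numbered 4 to 7, which fewer mice make easier. The matching shares over all genes were not computed for the fits without 1 mouse, so these member counts have no background beside them. In those fits the log2 fold change ranged from -0.0753 to 0.0642 for Met, -0.00729 to 0.469 for Fgfr3, -0.0194 to 0.0662 for Braf, -0.0656 to 0.0950 for Mapk3, -0.0119 to 0.0567 for Shc1, -0.0343 to 0.0626 for Rasa1, -0.382 to 0.406 for Dusp1, -0.0698 to 0.0873 for Spry1, -0.233 to 0.0894 for Spry4, -0.0293 to 0.216 for Spred1, -0.0704 to 0.155 for Spred2, -0.0480 to 0.749 for Jun, -0.139 to 0.525 for Myc and -0.465 to 0.206 for Egf. Of the tested members, Egf, Dusp4, Spry2, Fos, Etv5 and Mapk15 had under 60 counts in every mouse, and of these edgeR called Mapk15.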
